A study of Hevea brasiliensis with 2 samples.

Results

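Ethylene is the hormone whose release from ethrel is used to lengthen latex flow in the rubber tree, and the unigenes described here are those of its synthesis, its signalling and its response factors in latex, the cytoplasm of laticifer cells expelled at tapping. A unigene is a transcript sequence put together from the reads without a genome. Of 6726 unigenes in the deposited table of best protein hits, 32 had a hit name that holds 1-aminocyclopropane, ethylene, EIN3 or AP2/ERF. No Nr hit name was given for 1811 of the 6726, so these could be found by a Swissprot name alone. Unigene346 matched only because the word methylenesterol contains those letters, as its hit is a sterol C-methyltransferase, and it was set aside. This left 31 of the 51192 unigenes measured.

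The groups are Hevea brasiliensis clone PR107 and clone CATAS8-79, which the sample labels call RY8-79, with no treatment given for either. Latex of the first tapping from 5 virgin trees was pooled into 1 library for each. The labels give the age of the trees as 3 years, while the methods of the study give a different age. The study compared these clones because their latex flow and latex regeneration differ. In units of 1000000, the counted reads were 6.92 for CATAS8-79 and 6.87 for PR107.

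The hit names were deposited only for unigenes that the authors called different between these libraries. The 31 unigenes were therefore chosen by the measured difference between the clones, and their values are given as a description. Counts of unigenes that passed a test stand beside the share over all unigenes and support nothing about the members. Sums over a role cover called unigenes alone. There is no replicate check either, since each clone is 1 library. In pooled latex, fewer cells of a type and less RNA per cell cannot be told apart. Levels are given in reads and in RPKM, the reads divided by unigene length in kilobases and by the library's counted reads in units of 1000000. A difference is the log2 ratio of the read shares, PR107 over CATAS8-79 (above 0 where PR107 was higher), with a 95% Clopper-Pearson interval for counting error alone. The reads carry no molecular identifiers, so they are not independent molecules. Where a library had 0 reads, the difference is a bound against a floor of 3 reads in that library, which is 0.434 reads per 1000000 in CATAS8-79 and 0.437 in PR107.

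Plants make ethylene from methionine. Methionine is turned into S-adenosylmethionine, ACC synthase makes 1-aminocyclopropane-1-carboxylate (ACC) from it, and ACC oxidase releases ethylene. In Arabidopsis, the receptors and the kinase CTR1 hold the pathway off until ethylene binds, EIN2 then passes the signal on, and the factors EIN3 and EIL switch on genes that include ERF transcription factors. ETO1 marks ACC synthase for breakdown, and the F-box proteins EBF1 and EBF2 do the same to EIN3, so both act against ethylene output.

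The only member with a sequence in the sources used here is Unigene23152, an ACC oxidase-like unigene that the study followed by quantitative PCR. The primers designed for it are shown because they identify the transcript measured, in lower case from 5′ to 3′ and credited to the primer table of the study.
Unigene23152 forward: atcatcgagcataaactg
Unigene23152 reverse: aagcgtagatcatagagtgt

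The ethylene unigenes were split almost evenly between the clones, and the counts by direction differed between roles. These are counts of unigenes, not of genes. Some unigenes share their best hits, and whether those are parts of 1 transcript was not tested. Of the 31, 16 were higher in PR107 and 15 in CATAS8-79. The response factors, grouped by hit name alone and not tested for a response to ethylene, were mostly higher in PR107 (11 of 15). Of the 13 unigenes of synthesis, ETO1, receptor, EIN2 and EBF, 8 were higher in CATAS8-79. The 3 unigenes named after ethylene in other ways were higher in CATAS8-79. Over all annotated unigenes, 3709 were higher in PR107 and 3017 in CATAS8-79, so 55.1% against 51.6% of the ethylene unigenes. Fisher's exact test (two-sided, Benjamini-Hochberg over all 51192 unigenes) at an FDR of at most 0.001, with an absolute log2 ratio of at least 1, was passed by 29 of the 31. It was passed by 12.8% of all unigenes, 7.14% on the PR107 side and 5.7% on the CATAS8-79 side. The fold threshold alone was passed by 35.4%, with 19.6% on the PR107 side and 15.9% on the CATAS8-79 side. The rule chose the members on this contrast, so nothing is read from their share. That test compares the libraries, not the clones. In the edgeR exact test, with a coefficient of variation between libraries set at 0.2 by assumption, 7 of the 31 and 2.96% of all unigenes passed. At 0.4 only Unigene40405 and Unigene30401 passed among the 31, and 0.371% of all unigenes.

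By median, differences were larger among the unigenes higher in CATAS8-79. Their median log2 ratio was -1.89, with counts under the floor raised to 3 reads, and that of the unigenes higher in PR107 was 1.52. The corresponding medians over the annotated table were -1.74 and 1.81. On the CATAS8-79 side, the ETO1, EIN2 and EBF unigenes lay between -1.33 and -1.01, and the ACC oxidase-type ones at -1.21 and -2.18. The response factors and the 3 unigenes named after ethylene in other ways lay at -1.89 or lower on that side. Of the 11 unigenes with a log2 ratio of 2 or more in size, 7 were higher in CATAS8-79 and 4 in PR107. The median over all 31 was 1.04, beside 1.10 over the annotated table and 0.01 over all unigenes. As no member can lie between -1 and 1, this median sits at the edge of the gap.

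**Figure D1:**
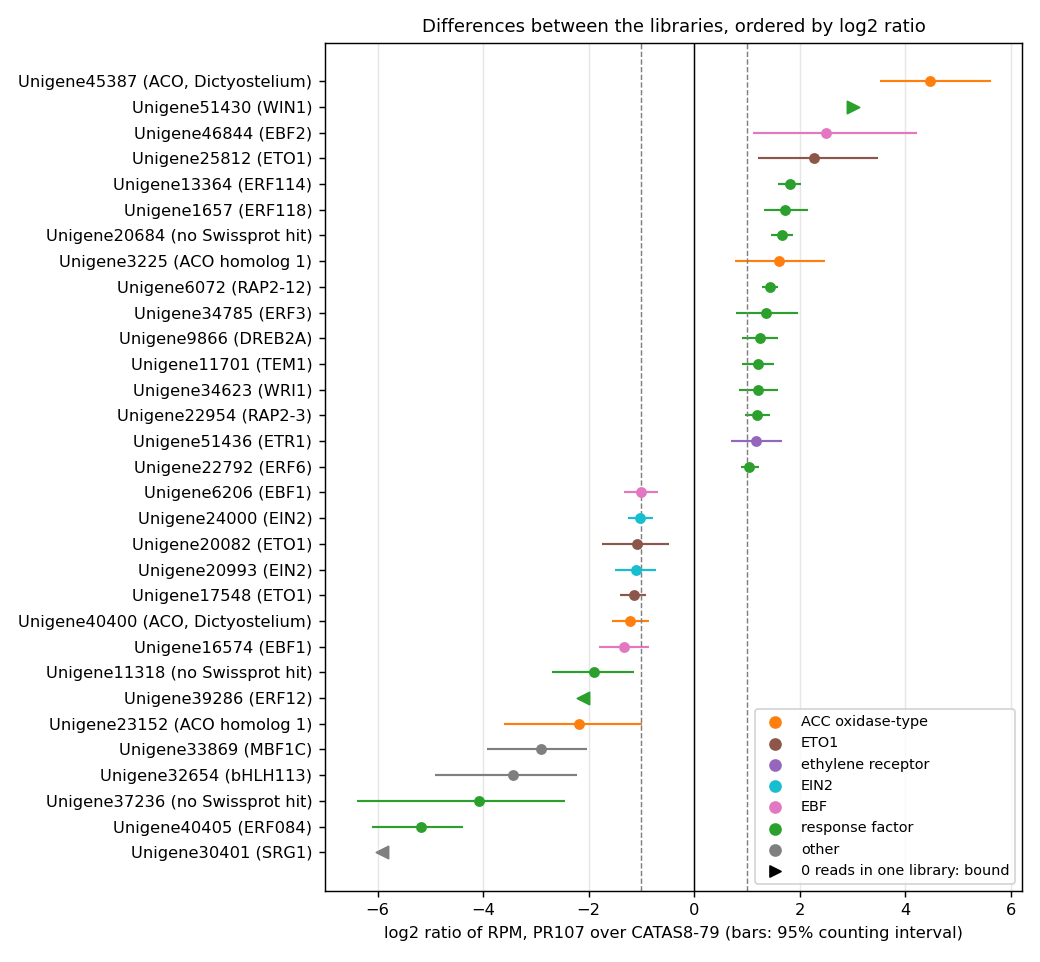
Log2 ratio of the scaled reads (PR107 over CATAS8-79) for the 31 ethylene unigenes, coloured by role and labelled with the short name of the best Swissprot hit. Points are single-library ratios, bars are 95% counting intervals, triangles are bounds for unigenes with 0 reads in a library, and dashed lines mark the threshold of 1 in either direction. The lowest values reach the bound of -5.91 for Unigene30401 and the highest is 4.47 for Unigene45387.

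The values nearest the threshold came from signalling and from a response factor. Unigene6206 (EBF1-like) had a log2 ratio of -1.01, Unigene24000 (EIN2-like) one of -1.02, and Unigene22792 (ERF6-like) one of 1.04. The hit names cover called unigenes alone, so the ethylene unigenes just below the threshold could not be picked out. Unigene17574, which the text of the study names as an EIN3-binding F-box protein, is outside the annotated table and so has no hit name here. Its difference lay far below the threshold. It had 846 CATAS8-79 reads and 1004 PR107 reads, which is 0.26 in log2 (counting interval 0.12 to 0.39). At 78.3 and 93.6 RPKM it exceeded 2 of the 3 EBF unigenes of the annotated table in CATAS8-79 and each of them in PR107.

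For the last step of synthesis, 4 unigenes had an ACC oxidase or ACC oxidase homolog name, 2 higher in each clone. Whether they act as ACC oxidases was not tested. Unigene40400 and Unigene45387 share both best hits, a rice protein with no functional name and an ACC oxidase of the slime mould Dictyostelium mucoroides. Unigene40400 gave 235 reads in CATAS8-79 against 101 in PR107 (31.4 and 13.6 RPKM), which is -1.21 in log2 (counting interval -1.56 to -0.86). Unigene45387 went the other way, from 9 reads in CATAS8-79 to 198 in PR107 (1.14 and 25.3 RPKM), which is 4.47 in log2 (counting interval 3.52 to 5.62). This was the largest difference toward PR107 among the 31 unigenes.

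The other ACC oxidase-type pair also split. Both Unigene23152 and Unigene3225 have ACC oxidase homolog 1 of Arabidopsis as Swissprot hit, a protein named for its similarity to the enzyme. Unigene23152, whose primers are printed above, had 32 CATAS8-79 reads and 7 PR107 reads (10.5 and 2.31 RPKM). Its log2 ratio of -2.18 has a wide interval, -3.61 to -0.98, because the reads are few. For Unigene3225 the reads were 17 in CATAS8-79 and 51 in PR107 (3.22 and 9.75 RPKM), which is 1.60 in log2 (counting interval 0.78 to 2.48). Of the 4, Unigene23152 alone has the enzyme's name in its Nr hit, from maize.

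Summed over these 4 called unigenes, the ACC oxidase-type reads differed little. As 2 were called in each direction, their shares had to differ between the libraries, and nothing is read from that. ACC oxidase unigenes that were not called could not be picked out. The 4 unigenes together had 293 CATAS8-79 reads and 357 PR107 reads, which is 0.30 in log2 (counting interval 0.07 to 0.52). Unigene40400 held 80.2% of these reads in CATAS8-79 (Clopper-Pearson interval 75.2 to 84.6) and 28.3% in PR107 (interval 23.7 to 33.3). Unigene45387 held 3.07% (interval 1.41 to 5.75) and 55.5% (interval 50.1 to 60.7). Without Unigene40400, the log2 ratio of the sum was 2.15. No annotated unigene carried the name of ACC synthase, the enzyme that makes ACC.

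ETO1, the protein that marks ACC synthase for breakdown in Arabidopsis, was the best hit of 3 unigenes, again in both directions. Unigene17548, the longest at 1797 bp, had 459 CATAS8-79 reads and 205 PR107 reads (36.9 and 16.6 RPKM), which is -1.15 in log2 (counting interval -1.40 to -0.91). Unigene20082, of 209 bp, had 71 and 33 reads and a nearly equal log2 ratio of -1.09. It missed the call over all unigenes with the library totals. It passed with TMM or median-ratio scaling, and where only unigenes with at least 10 reads were tested. Unigene25812, of 213 bp, had 9 and 43 reads in the same order, which is 2.27 in log2 (counting interval 1.21 to 3.49). Unigene17548 and Unigene25812 have the same Nr and Swissprot hits. Both were called, in opposite directions, so their intervals had to lie apart and nothing is read from that. Summed over the 3, the log2 ratio was -0.93 (interval -1.14 to -0.72). Unigene17548 set most of this, and the reads of the other ETO1 unigenes alone gave -0.06.

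A single unigene, Unigene51436, was named as an ethylene receptor. It had 53 CATAS8-79 reads and 119 PR107 reads (15.7 and 35.5 RPKM), which is 1.18 in log2 (counting interval 0.70 to 1.67). Its Nr hit is ethylene receptor 4 of poplar and its Swissprot hit is ETR1 of peach. Receptors hold the pathway off in Arabidopsis until ethylene binds.

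EIN2, the membrane protein that carries the signal past the receptors, was the hit of Unigene24000 and Unigene20993, and both were higher in CATAS8-79 by like amounts. Unigene24000 had 457 reads there and 223 in PR107 (91.2 and 44.9 RPKM), which is -1.02 in log2 (counting interval -1.26 to -0.79). Unigene20993 had 187 and 86 reads (51.8 and 24 RPKM), which is -1.11 in log2 (counting interval -1.50 to -0.73). Unigene24000 held 71% of the reads of these 2 unigenes in CATAS8-79 and 72.2% in PR107, which follows from their like log2 ratios. EIN2 unigenes that were not called could not be picked out. The Nr hits of Unigene24000 and Unigene20993 are separate poplar entries of the same name. Whether the 2 unigenes are parts of 1 transcript was not tested.

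The EBF unigenes, which target EIN3 for breakdown in Arabidopsis, again included 1 that went against the others. Unigene6206 (1254 bp) had 245 CATAS8-79 reads and 121 PR107 reads (28.2 and 14.1 RPKM). Unigene16574 (235 bp) was read 134 and 53 times (82.4 and 32.8 RPKM), which is -1.33 in log2 (counting interval -1.81 to -0.86). Unigene46844 (205 bp), the one with EBF2 as Swissprot hit, had only 5 reads in CATAS8-79 and 28 in PR107, which is 2.50 in log2 (counting interval 1.11 to 4.23). Its Nr hit has the same name as that of Unigene6206, EIN3-binding F-box protein 3 of poplar. The reads of these 3 summed to 384 in CATAS8-79 and 202 in PR107, which is -0.92 in log2 (counting interval -1.17 to -0.67). With Unigene17574 added, a sum chosen after seeing the data, the reads were 1230 and 1206, which is -0.02 in log2 (counting interval -0.13 to 0.10). The sum of -0.92 covers called unigenes alone, and EBF unigenes that were not called could not be picked out by name.

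**Figure D2:**
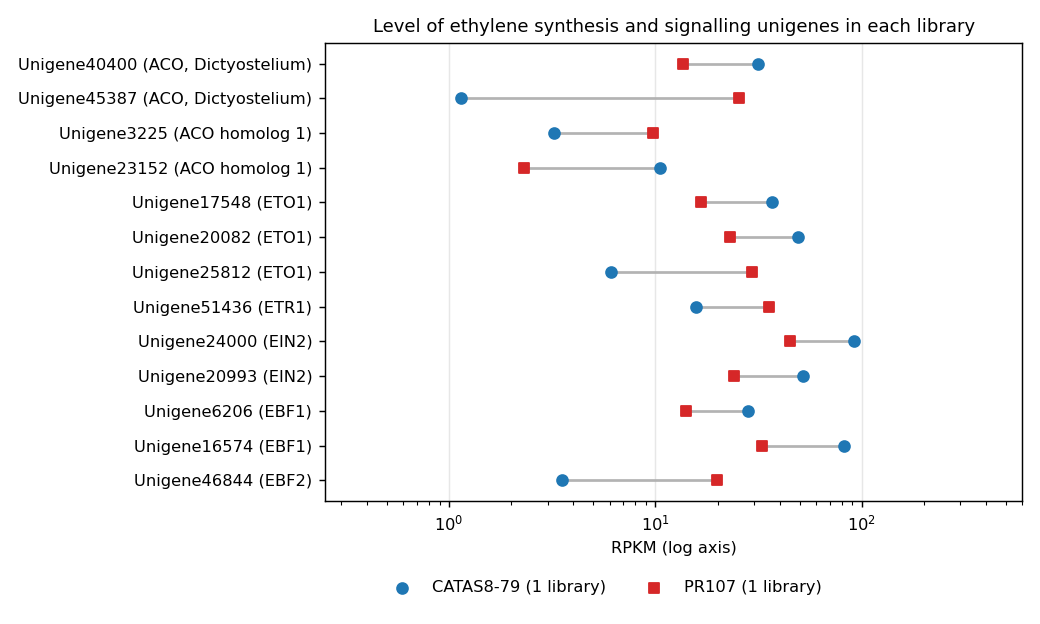
RPKM (log axis) of the 13 unigenes of ethylene synthesis, ETO1, receptor, EIN2 and EBF in the CATAS8-79 library (circles) and the PR107 library (squares), 1 library each. The circle lies to the right for 8 unigenes and the square for 5, with the widest gap for Unigene45387 (1.14 against 25.3 RPKM).

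**Figure D3:**
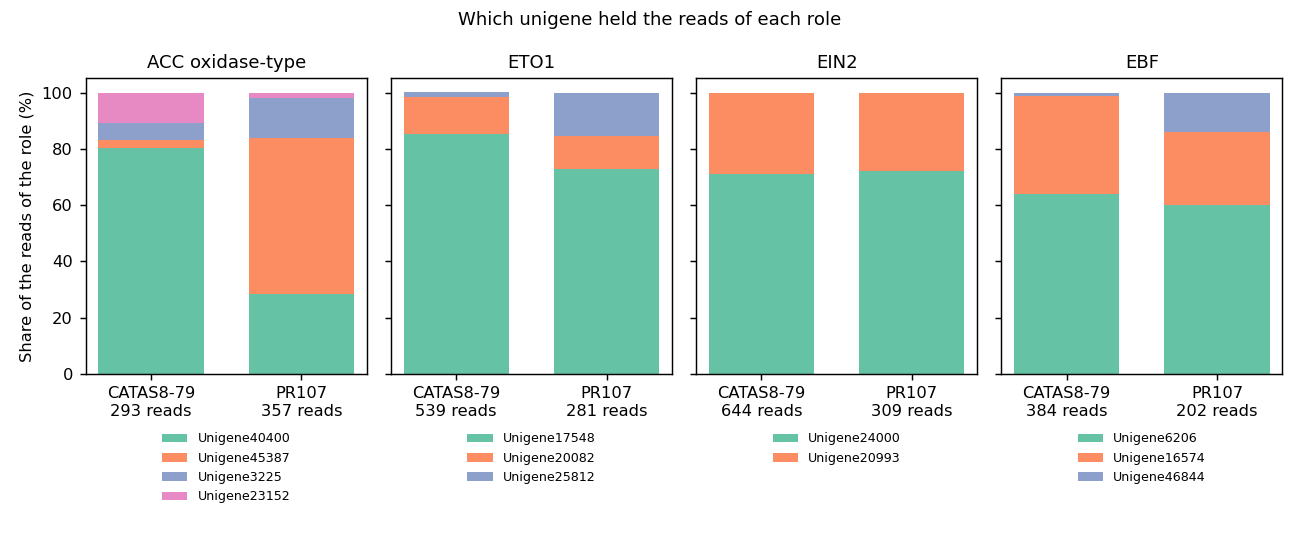
Share (%) of the reads of each role held by each of its unigenes, as stacked bars for CATAS8-79 and PR107 with the summed reads under each bar. Unigene40400 gives 80.2% of the ACC oxidase-type reads in CATAS8-79 and 28.3% in PR107, while the EIN2 bars are nearly the same in both. The shares cover called unigenes alone.

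The factors EIN3 and EIL, which stand between EIN2 and the ERF genes, were not among the names of the annotated table (0 unigenes). The 15 response factors carry an AP2 or ERF DNA-binding domain by name, and ERF proteins bind GCC-box or related promoter elements. Together they had 2652 CATAS8-79 reads and 5374 PR107 reads, which is 1.03 in log2 (counting interval 0.96 to 1.10). The 11 that were higher in PR107 ran from 1.04 to 1.81, apart from the bound for Unigene51430. The threshold of 1 sets the lower end of this range. The 4 that were higher in CATAS8-79 began at -1.89.

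The most abundant response factors were the same 3 in both libraries. By RPKM among the 31, Unigene22792 ranked 1 in CATAS8-79 and 2 in PR107, Unigene20684 ranked 2 and 1, and Unigene6072 ranked 3 in both. Unigene6072, whose hit RAP2-12 takes part in the response to low oxygen in Arabidopsis, had 522 CATAS8-79 reads and 1401 PR107 reads (104 and 280 RPKM), which is 1.44 in log2 (counting interval 1.29 to 1.58). Unigene22954 has the related factor RAP2-3 as hit and had 218 and 495 reads (33.8 and 77.3 RPKM), which is 1.19 in log2. The 2 RAP2-type factors were thus higher in PR107 by similar amounts.

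Factors with ERF6 and DREB2A as hits were also higher in PR107. Unigene22792, with ERF6 as hit, a stress-response factor of Arabidopsis, had 422 CATAS8-79 reads and 864 PR107 reads (138 and 284 RPKM). Its log2 ratio was 1.04 (interval 0.88 to 1.22), which fell just under the threshold of 1 with the TMM scaling of edgeR. Unigene9866, with DREB2A of rice as hit, a dehydration-response factor, had 102 and 240 reads, which is 1.25 in log2 (counting interval 0.91 to 1.59). Unigene20684 has no Swissprot hit and only the name of the domain in Nr. It had 240 CATAS8-79 reads and 751 PR107 reads (115 and 363 RPKM), which is 1.66 in log2 (counting interval 1.45 to 1.87), and its PR107 level was the highest of all 31 unigenes.

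Further factors higher in PR107 have hits with quite different known roles. Unigene13364, at 1961 bp the longest of the 31, has ERF114 as hit and had 216 CATAS8-79 reads and 750 PR107 reads (15.9 and 55.7 RPKM). Its log2 ratio of 1.81 (interval 1.59 to 2.03) was the largest among factors read in both libraries and higher in PR107. Unigene1657, with ERF118 as hit, followed with 66 and 217 reads and a log2 ratio of 1.73. Unigene34623 has WRI1 as hit, the activator of fatty acid synthesis in Arabidopsis seeds, and had 89 and 205 reads (31.9 and 74.1 RPKM).

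Unigene11701 (TEM1, a repressor of flowering in Arabidopsis) had 131 CATAS8-79 reads and 300 PR107 reads, which is 1.21 in log2 (counting interval 0.91 to 1.51). Unigene34785 (ERF3 of tobacco, a repressor) had 36 and 92 reads, which is 1.36 in log2 (counting interval 0.79 to 1.96). Unigene51430 (WIN1, an activator of wax synthesis in Arabidopsis) was not read in CATAS8-79 and was read 24 times in PR107, which puts it at least 8.06-fold higher in PR107. Its level there was 7.19 RPKM, the lowest of the 11.

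Against these stood 4 response factors that were higher in CATAS8-79, with few or no reads in PR107. Unigene40405, with ERF084 as hit, had 475 CATAS8-79 reads and 13 PR107 reads (61.3 and 1.69 RPKM), which is -5.18 in log2 (counting interval -6.10 to -4.39). It ranked 6 of 31 by RPKM in CATAS8-79 and 28 in PR107. It held 17.9% of the response factor reads in CATAS8-79 (interval 16.5 to 19.4) and 0.242% in PR107 (interval 0.129 to 0.413). Unigene37236, with no Swissprot hit, had 51 CATAS8-79 reads and 3 PR107 reads, which is -4.08 in log2 (counting interval -6.40 to -2.45). Unigene11318, likewise without a Swissprot hit, had 71 and 19 reads, which is -1.89 in log2 (counting interval -2.70 to -1.14). Unigene39286, with the repressor ERF12 as hit, had 13 reads in CATAS8-79 and none in PR107, which puts it at least 4.3-fold higher in CATAS8-79. Over all unigenes with the library totals it missed the call. It passed with TMM or median-ratio scaling, and where only unigenes with at least 10 reads were tested.

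**Figure D4:**
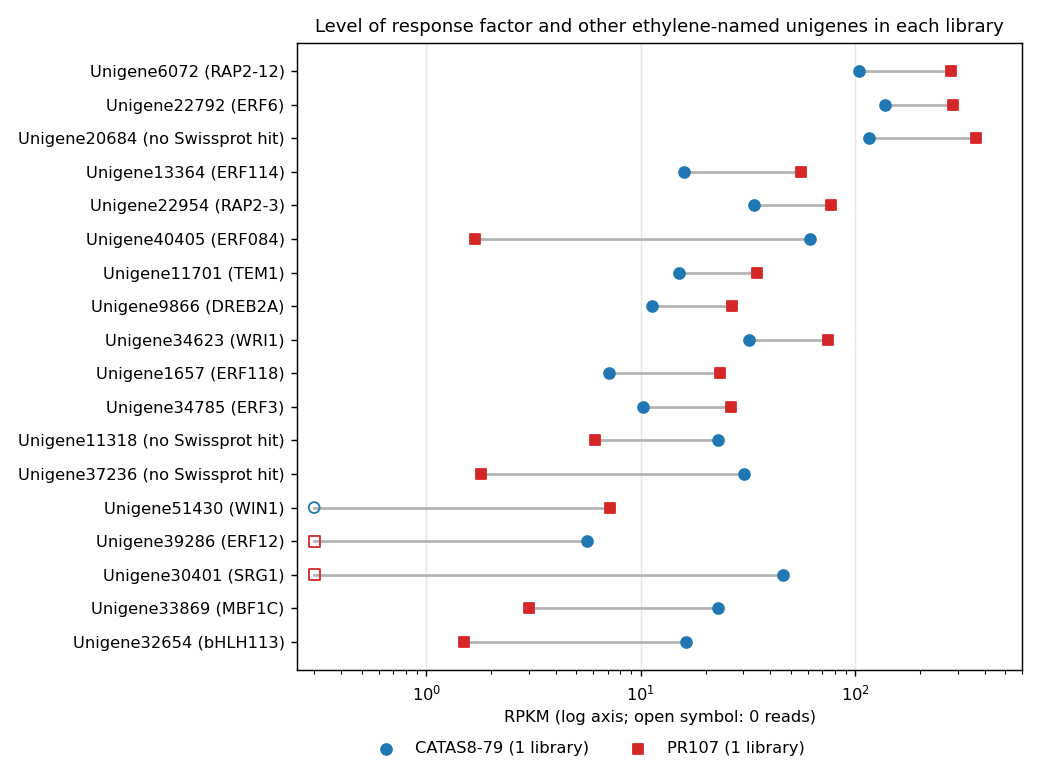
RPKM (log axis) of the 15 response factors and the 3 other ethylene-named unigenes in the CATAS8-79 library (circles) and the PR107 library (squares), with open symbols for 0 reads and short names of the best Swissprot hits. The squares of 11 response factors lie to the right, while Unigene40405 falls from 61.3 RPKM in CATAS8-79 to 1.69 in PR107.

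The 3 remaining unigenes carry ethylene in their Nr name, while their Swissprot hits name other proteins, and they showed some of the widest gaps. Unigene30401 is named as an ethylene-forming-enzyme-like dioxygenase after an apricot protein, and its Swissprot hit is SRG1, a senescence-related Arabidopsis protein. It had 182 reads in CATAS8-79 (45.9 RPKM) and none in PR107, which puts it at least 60.2-fold higher in CATAS8-79. Unigene33869, an ethylene-responsive coactivator-like protein with MBF1C as hit, a heat-tolerance coactivator of Arabidopsis, had 91 and 12 reads (22.8 and 3.02 RPKM). Unigene32654, with the transcription factor bHLH113 as hit, had 65 and 6 reads, which is -3.43 in log2 (counting interval -4.92 to -2.23). Together the 3 had 338 CATAS8-79 reads and 18 PR107 reads, which is -4.22 in log2 (counting interval -4.99 to -3.54).

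The call on reads and the hit names also bear on the length, level and best hits of the members, so these are given as a description beside the annotated table. The median length was 573 bp, with 41.9% under 500 bp, beside 59.2% in the annotated table and 67.6% of all unigenes. The Nr hit of 18 of the 31 was a protein of Populus trichocarpa and that of none was from Hevea. Of the 28 with a Swissprot hit, 23 had one in Arabidopsis thaliana. By mean RPKM, 80.6% of the 31 lay above the median of all unigenes, beside 61.6% of the annotated table, and the middle member stood at percentile 63.6, beside 57.8 for the annotated table. The median member had 91 CATAS8-79 reads and 92 PR107 reads. In 2 sets, the unigenes had identical Nr and Swissprot hits (the ACC oxidase pair Unigene40400 and Unigene45387, and the 3 ETO1 unigenes), and both sets had members in either direction. Unigenes with like sequences can share or split reads, so levels within these sets are uncertain.

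Unigene numbers also move with the direction. In the annotated table, 83% of the unigenes with a number of at least 40000 lay on the PR107 side, against 44.9% of those with lower numbers. Of the 6 ethylene unigenes in the high range, 4 were higher in PR107 (Unigene45387, Unigene46844, Unigene51430 and Unigene51436) and 2 in CATAS8-79 (Unigene40405 and Unigene40400). Among the other 25, 12 were higher in PR107 and 13 in CATAS8-79. The part of the numbering in the differences was not tested. Without the high numbers, the median log2 ratio of the members changed sign, from 1.04 to -1.01, across the gap set by the threshold. The log2 ratio of the summed response factors was then 1.30, beside 1.03 with all of them.

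Of the genes that feed or flank the pathway, 17 annotated unigenes were found by their names, 7 of them higher in PR107 and 10 in CATAS8-79. All of them passed the authors' call, since only such unigenes are annotated. S-adenosylmethionine synthase, which makes the precursor of ACC, was the hit of 7 unigenes that lay far apart. Unigene12877 had 199 CATAS8-79 reads and 1044 PR107 reads (42.9 and 227 RPKM), which is 2.40 in log2 (counting interval 2.18 to 2.63). Unigene23927 has the same poplar enzyme name in Nr and had 216 and 17 reads (47.4 and 3.76 RPKM), which is -3.66 in log2 (counting interval -4.46 to -2.94). Of the 7, 3 were higher in PR107 and 4 in CATAS8-79, while 55.1% of the annotated table was higher in PR107.

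Summed, the S-adenosylmethionine synthase unigenes had 794 CATAS8-79 reads and 1759 PR107 reads, which is 1.16 in log2 (counting interval 1.04 to 1.28). Unigene12877 alone gave 1044 of these PR107 reads, while 4 of the 7 unigenes were higher in CATAS8-79. The 4 methionine synthase unigenes, which make the methionine, had 469 and 343 reads, 2 of them higher in each clone. The 2 homocysteine S-methyltransferase unigenes also went in opposite directions. Unigene31257, whose hit is CTR1, the kinase that holds the pathway off, had 110 CATAS8-79 reads and 48 PR107 reads (29.6 and 13 RPKM), which is -1.19 in log2 (counting interval -1.71 to -0.68). No annotated unigene was named for methionine salvage, for RTE1 or for the 5′-3′ exoribonuclease EIN5.

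**Figure D5:**
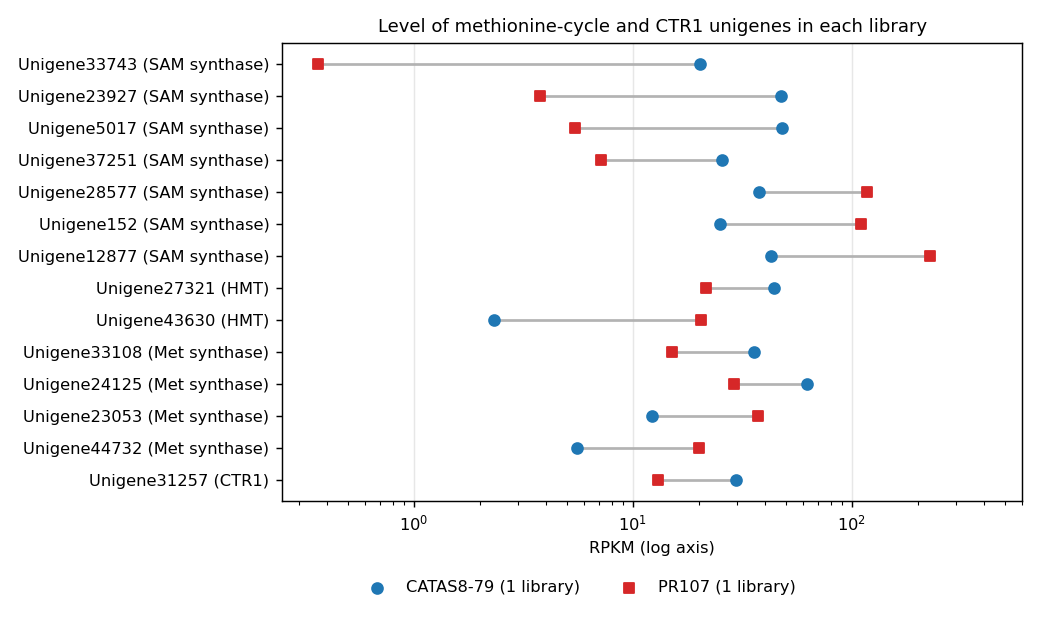
RPKM (log axis) of the S-adenosylmethionine (SAM) synthase, homocysteine S-methyltransferase (HMT), methionine (Met) synthase and CTR1 unigenes in the CATAS8-79 library (circles) and the PR107 library (squares). SAM synthase unigenes lie on both sides, from Unigene33743 (20.3 against 0.365 RPKM) to Unigene12877 (42.9 against 227 RPKM).

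The tissue could be checked only among the called unigenes. Of the rubber particle and hevein names, the small rubber particle protein was found, as Unigene823 with 8.51 RPKM in CATAS8-79 and 46.1 in PR107. The enolase Unigene3181 came up as well, under an allergen name, with 70.1 and 35 RPKM. The names for photosynthetic cells gave a Rubisco small chain, Unigene43787 (10.8 and 39.1 RPKM), and a chlorophyll a-b binding protein, Unigene12717 (21.6 and 5.63 RPKM), which lay in opposite directions. Their part in the ethylene differences was not tested.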

How the data were processed

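The authors assembled the reads of 1 latex library per clone de novo with SOAPdenovo, aligned reads to the unigenes, and deposited raw counts of reads with RPKM. No assembler version is given in the sources used here. Recomputing RPKM from reads, length and the sum of reads left differences of at most 5e-05. The deposited log2 ratio, p-value and FDR are the authors' own comparison and were not used. The Nr and Swissprot hit names come from another deposited table, limited to the 6726 unigenes called by the authors.

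The members and name lists were chosen with earlier results of these data known. Named were all unigenes of the roles up to EBF and, of the rest, the 8 with the most reads, the 5 with the largest ratio in each direction, and those with 0 reads in a library or a mention in the text of the study. Unigene11318, the only one of the 31 outside this rule, was named after its values were seen. Sums, shares, log2 ratios and Clopper-Pearson intervals were computed from reads. Fisher's exact test ran on 51192 unigenes and was tested on simulated data. A quasi-likelihood fit needs replicates and was not possible. Alternatives were scaling by TMM or by the median ratio, the edgeR exact test with an assumed spread, filters on reads, length, hit text and numbering, and other sums. A table of 50196 RefSeq genes matched 0 of the unigene identifiers. Scaling and the edgeR test ran in R 4.3.3 (edgeR 4.0.16 for TMM, DESeq2 1.42.0 for the median ratio). Reads were handled in Python 3.11.15 with pandas 2.3.3 and numpy 2.4.6, intervals and Fisher's tests came from scipy 1.17.1, and plots from matplotlib 3.10.9.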

Additional observations from a re-analysis of the deposited data

How the results depend on the processing

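No paired analysis was possible because each clone has 1 library, and for the same reason no replicate could be left out. Of 100 alternative values, 80 kept their direction and stayed within the counting interval or within 1.5 times the count, 18 moved further and 2 changed sign. TMM shifted every log2 ratio by -0.046 and median-ratio scaling by -0.029, and with either 16 unigenes stayed higher in PR107. Both scalings added the calls of Unigene20082 and Unigene39286, and TMM removed that of Unigene22792. Of the calls on reads, 7 were left with an assumed coefficient of variation of 0.2 (Unigene45387, Unigene40405, Unigene37236, Unigene51430, Unigene30401, Unigene33869 and Unigene32654), 2 with one of 0.4, and 10 with a log2 threshold of 2. Keeping members of at least 500 bp left 18 calls, 9 higher in each clone and 7 response factors higher in PR107, with a median of 0.09 and an ETO1 sum of -1.15. With the search word required in the Nr text, the median was 0.02 and the ACC oxidase-type sum was -2.18, from Unigene23152 alone. Without unigene numbers of 40000 or higher, the median was -1.01 and the response factor sum 1.30. Summing RPKM gave -0.42 for ETO1. Without the unigene with the most reads, the sums were 2.15 for ACC oxidase-type, -0.06 for ETO1, 0.91 for response factors and -3.10 for the other 3 unigenes. Of the settings chosen after seeing the data, adding Unigene346 to those 3 gave -0.23, and adding Unigene17574 to the EBF unigenes gave -0.02. The causes of these shifts were not tested beyond the unigenes each setting removes or adds.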

Other observations

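The unigene set aside, Unigene346, has 24-methylenesterol C-methyltransferase 2 of Arabidopsis as Swissprot hit, an enzyme of sterol synthesis that uses S-adenosylmethionine as methyl donor. It had 125 CATAS8-79 reads and 375 PR107 reads (26.7 and 80.7 RPKM), which is 1.60 in log2 (counting interval 1.30 to 1.90).

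Other AP2-domain factors whose names lack the search words were few. Unigene34551, whose Nr hit is the CRT/DRE binding factor 1 of Hevea brasiliensis, a cold-response factor in Arabidopsis, had 75 CATAS8-79 reads and 36 PR107 reads, which is -1.05 in log2 (counting interval -1.66 to -0.46). Unigene51373 has an AP2 domain name alone and had 2 CATAS8-79 reads and 34 PR107 reads, which is 4.10 in log2 (counting interval 2.13 to 7.20). Unigene17285, found among the copper-transporting ATPases that load the ethylene receptors in Arabidopsis, had 86 and 26 reads, but its Nr hit is the chloroplast pump Paa2.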
